A study of Homo sapiens with 39 samples.

Results

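CLU, the gene for clusterin, was followed across RNA-seq libraries of melanoma cells that lacked a regulatory region near SOX10. It was selected on the measured values of the R1 clones: it was the 1 gene of 15287 tested in both cell lines that was called higher than wild type in all 4 clones with a deleted R1 region. A call was a limma p under 0.05 after Benjamini-Hochberg adjustment over all genes tested and a difference of at least 1 on the log2(TPM + 1) scale. TPM is a share of a library's RNA corrected for transcript length. The deposited gene table holds 60671 gene identifiers, of which CLU (ENSG00000120885) is 1. Its 17 transcripts are among 173728 in the deposited transcript table. In GENCODE 29 (GRCh38) the gene lies on the minus strand of chromosome 8, from 27596917 to 27615031. No other annotated gene overlaps it except MIR6843, which was listed at 0 in all 39 libraries.

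Clusterin, also called apolipoprotein J, is a secreted glycoprotein that works as a chaperone outside the cell, where it keeps misfolded proteins soluble. It travels with lipoproteins, binds the late complement complex and hinders its insertion into membranes, and is taken up by receptors of the LDL receptor family such as LRP2 and LRP8. Its gene is widely expressed and is known to respond to heat, oxidative and other stress. In melanoma and other cancers clusterin has been studied for its link to cell survival under chemotherapy.

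The study compared A375 and WM115, established human melanoma lines, in their wild-type state (WT) and in clones labelled R1_del or R4_del for deletion of a region described as an enhancer of Sox10. The 18 A375 libraries came from WT (4), the R1 clones 1.1 (3) and 1.2 (4), and the R4 clones 4.1 (4) and 4.2 (3). The 21 WM115 libraries came from WT (4), the R1 clones 1.1 (5) and 1.2 (3), the R4 clones 4.1 (3) and 4.2 (3), and clone 1.3 (3), whose number belongs to the R1 series while its genotype label reads R4_del. Clone 1.3 was therefore kept apart from both regions. The labels name no treatment and no time, and do not give the number of deleted alleles. Each group of libraries repeats 1 clone, so a test over libraries compares that clone with WT and not a deletion with its absence. Nothing in the labels says that the libraries came from separate cultures, so the p-values measure the spread between libraries only.

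SOX10, a transcription factor of melanocytes and the neural crest, was present in every library, at 381 to 876 TPM in A375 and 9.56 to 553 TPM in WM115. The low end was library 3 of WM115 R1 clone 1.2, while the other two libraries of that clone had 279 and 272 TPM, so CLU values of this clone are given with and without it. Of the melanocytic markers, S100B and MITF were also present in A375 (12.7 to 93.2 TPM and 7.23 to 26.7 TPM), whereas TYR and DCT stayed under 1 TPM there. Of the fibroblast list, COL1A2 was at 365 to 857 TPM in every WM115 library and under 1 TPM in A375, while COL1A1 and COL3A1 reached at most 4.55 and 3.67 TPM. LUM reached 26.4 TPM in WM115 and 7.45 TPM in A375, and DCN and PDGFRA reached at most 4.34 and 3.34 TPM. Of the keratinocyte list, KRT10 was at 38.8 to 98.4 TPM and KRT14 reached 30.4 TPM in A375, while KRT1, KRT5 and DSG3 were under 1 TPM everywhere. Endothelial markers summed to at most 16.3 TPM, and PTPRC and CD3E of the immune list were under 1 TPM everywhere, while CD68 reached 757 TPM. The mitochondrial share of a library, summed over its mitochondrially encoded genes, lay between 0.968% and 4.92% for A375 and between 4.71% and 19.4% for WM115. Since these are bulk samples of cells, fewer cells of a kind and less RNA per cell cannot be told apart. Read counts are not given, so depth is unknown and no counting interval was computed.

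CLU was a gene of modest level in WT cells of both lines. The 4 A375 WT libraries had CLU levels of 12.3, 7.15, 7.26 and 13.8 TPM, a mean of 10.1 ± 3.43 TPM (SD, n = 4). The 4 WM115 WT libraries had CLU at 3.09, 4.91, 5.81 and 3.52 TPM, a mean of 4.33 ± 1.25 TPM (SD, n = 4). Every WM115 WT library lay below every A375 WT library. Between the WT cells the CLU difference, WM115 minus A375, was -1.04 on the log2(TPM + 1) scale (SE 0.25, limma Benjamini-Hochberg adjusted p = 0.00727, called), in a comparison where 22.7% of genes were called. The size of that difference falls under 1 when any of 4 libraries is left out. Among genes with a TPM of at least 1, CLU stood on average at the 39.7 percentile in A375 WT and at the 23.3 percentile in WM115 WT.

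The R1 clones, which chose the gene, are described without a test. A375 R1 clone 1.1 had CLU at 23.9, 24.4 and 29.1 TPM, and A375 R1 clone 1.2 had 29.4, 29.6, 27.9 and 21.3 TPM. All 7 libraries lay above the highest WT library, and the libraries of the 2 clones overlapped each other. Mean CLU levels were 25.8 ± 2.87 TPM (SD, n = 3) in clone 1.1 and 27.0 ± 3.90 TPM (SD, n = 4) in clone 1.2, or 2.55 and 2.67 times the WT mean. On the log2(TPM + 1) scale the differences from WT were 1.32 (SE 0.27) and 1.37 (SE 0.25). The rule used these contrasts, in which 0.186% and 2.57% of genes were called higher, so nothing is read from those shares.

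WM115 R1 clone 1.1 had CLU at 28.2, 30.3, 18.2, 9.07 and 15.0 TPM, all above the highest WT library of the line. WM115 R1 clone 1.2 had CLU at 74.4, 105 and 372 TPM, and no library of clone 1.1 came near these levels. The library at 372 TPM was library 3, the one with little SOX10. CLU there stood at the 97.8 percentile of genes with a TPM of at least 1, against 86.5 and 91.0 in the other two libraries of the clone. The differences from WT were 1.90 (SE 0.51) in clone 1.1 and 4.78 (SE 0.58) in clone 1.2 on the log2(TPM + 1) scale, and the latter was 4.097 without library 3. In these contrasts, also used by the rule, 1.22% and 4.49% of genes were called higher.

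**Figure D1:**
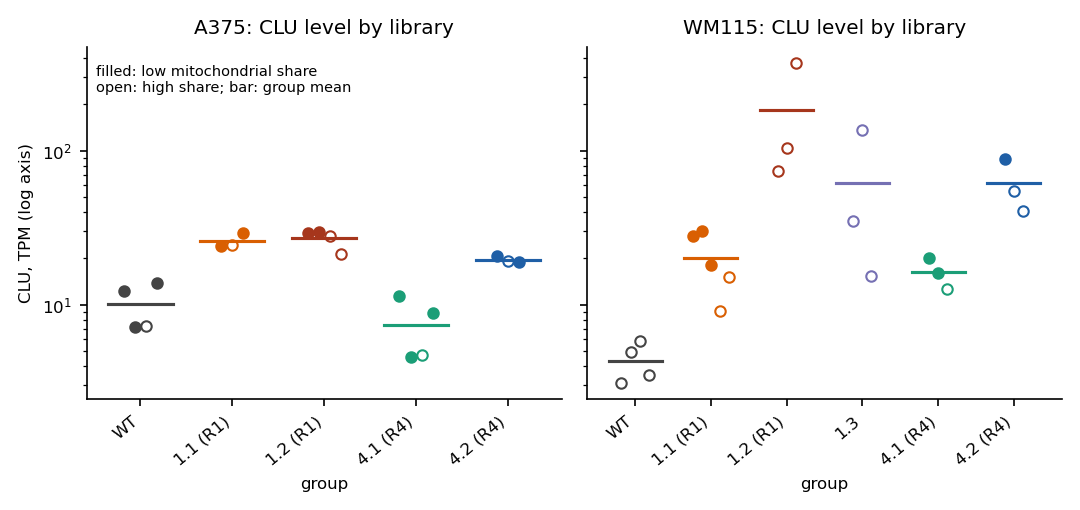
CLU level in TPM (log axis) in each of the 39 libraries by group, for A375 (left) and WM115 (right). Points are libraries, filled where the mitochondrial share was low and open where it was high (divided at 2.5% in A375 and 7.5% in WM115), and bars are group means. All WM115 clones lie above the WT libraries, while A375 clone 4.1 overlaps WT.

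The rule placed CLU at the top by a modest margin. Ranked by the smallest of the 4 R1 differences, CLU had 1.32, and the next genes were NRP1 with 1.07, RNU6-6P with 0.97 and LINC00973 with 0.93, all on the log2(TPM + 1) scale and all short of a call in at least 1 clone. NRP1 encodes neuropilin, a coreceptor for semaphorins and VEGF, RNU6-6P is a copy of the U6 small nuclear RNA, and LINC00973 is a long noncoding RNA. Across the 15287 genes, 10 were called higher in 3 of the 4 R1 clones, 145 in 2 and 798 in 1. CLU was no longer called in all 4 without A375 WT library 2 or 3 or without library 2 or 3 of A375 clone 1.1. The same held with the mitochondrial set (low or high share) as a term.

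The R4 clones were not used by the rule, although they share the WT libraries with the contrasts that were. In A375 the clones of this region went apart. A375 R4 clone 4.1 had CLU at 11.4, 4.54, 4.74 and 8.89 TPM (mean 7.38 ± 3.32 TPM, SD, n = 4), with 2 libraries below the lowest WT library and 2 within the WT range. A375 R4 clone 4.2 had CLU at 20.7, 19.1 and 18.8 TPM (mean 19.6 ± 1.0 TPM, SD, n = 3), all above the highest WT library and all below the lowest library of clone 1.1. Neither clone was called against WT. In clone 4.1 the CLU difference was -0.44 (SE 0.25, limma Benjamini-Hochberg adjusted p = 0.600), where 0.407% of genes were called lower. With libraries paired by replicate number, as deviations of same-numbered libraries from their group means ran together, the SE for clone 4.1 fell to 0.12 and the limma Benjamini-Hochberg adjusted p was 0.0413, with CLU lower in 4 of 4 pairs but by less than the 1 needed for a call. In clone 4.2 the CLU difference was 0.94 (SE 0.27, limma Benjamini-Hochberg adjusted p = 0.233), where 0.108% of genes were called higher.

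Set against each other, which uses neither WT nor R1 libraries as a contrast, A375 R4 clone 4.2 had more CLU than R4 clone 4.1. The difference was 1.38 on the log2(TPM + 1) scale (SE 0.27, limma Benjamini-Hochberg adjusted p = 0.00862, called), higher in 3 of 3 libraries than any of the 4 of clone 4.1, where 2.23% of genes were called. The adjusted p for CLU rose over 0.05 when only the 2 clones were fitted and when only libraries of low mitochondrial share were kept. For the A375 R1 clones the difference of 1.2 minus 1.1 was 0.06 (SE 0.27, limma Benjamini-Hochberg adjusted p = 0.906), where 6.16% of genes were called.

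In WM115 both R4 clones had more CLU than WT. WM115 R4 clone 4.1 had CLU at 20.005, 16.1 and 12.6 TPM (mean 16.2 ± 3.71 TPM, SD, n = 3), and WM115 R4 clone 4.2 had 89.1, 55.1 and 40.4 TPM (mean 61.5 ± 25.0 TPM, SD, n = 3). All 6 libraries exceeded the highest WT library, and the libraries of the 2 clones did not overlap. In clone 4.2 the CLU difference from WT was 3.51 (SE 0.58, limma Benjamini-Hochberg adjusted p = 0.000646, called), where 2.52% of genes were called higher, and it ranked 6 of 16997 genes by size. In clone 4.1 it was 1.70 (SE 0.58, limma Benjamini-Hochberg adjusted p = 0.0411, called), where 3.2% of genes were called higher. That second call was lost without a filter on low values and with the mitochondrial set (low or high share) as a term. It was also lost when any of 3 WT libraries (1, 2 or 4) or any library of clone 4.1 itself was left out.

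WM115 clone 1.3, the clone with conflicting labels, had the widest spread of CLU relative to its mean. Its libraries had CLU at 34.8, 136 and 15.3 TPM (mean 62.0 ± 64.6 TPM, SD, n = 3), all above the highest WT library. The difference from WT was 3.05 (SE 0.58, limma Benjamini-Hochberg adjusted p = 0.0115, called), where 0.424% of genes were called higher. Without library 2, the one at 136 TPM, it was 2.21 and no longer called (limma Benjamini-Hochberg adjusted p = 0.0849). The call was also lost, at an unchanged difference, with only clone 1.3 and WT fitted (limma Benjamini-Hochberg adjusted p = 0.126) and with only WM115 libraries of high mitochondrial share (0.0775). The 3 libraries, in the same order, had SOX10 at 465, 328 and 525 TPM and mitochondrial shares of 10.98%, 8.31% and 19.4%. The part of the mitochondrial share in the spread of CLU was not tested.

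Between WM115 clones of 1 region the CLU levels also differed. R1 clone 1.2 exceeded R1 clone 1.1 by 2.88 on the log2(TPM + 1) scale (SE 0.56, limma Benjamini-Hochberg adjusted p = 0.000741, called), higher in 3 of 3 libraries than any of the 5 of clone 1.1, where 11.8% of genes were called. Without library 3 of clone 1.2 this CLU difference was 2.19 and still called. R4 clone 4.2 exceeded R4 clone 4.1 by 1.81 (SE 0.62, limma Benjamini-Hochberg adjusted p = 0.0919, not called), where 2.63% of genes were called, and it was called without library 3 of clone 1.2 or without library 2 of clone 1.3, which share the estimate of spread.

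**Figure D2:**
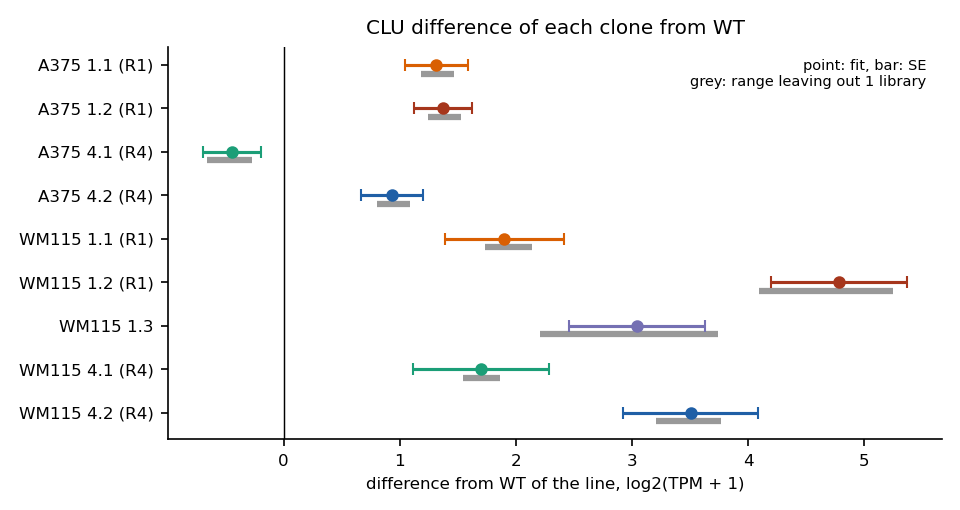
Difference in CLU of each of the 9 clones from WT of its line on the log2(TPM + 1) scale. Points are the fitted differences with their SE, and grey bars are the range over fits that each leave out 1 library. The values run from -0.44 in A375 clone 4.1 to 4.78 in WM115 clone 1.2.

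The mean CLU difference of the 2 R4 clones from WT was larger in WM115 than in A375 by 2.36 on the log2(TPM + 1) scale (SE 0.57, limma over all 39 libraries, Benjamini-Hochberg adjusted p = 0.00607, called). In that comparison 5.01% of genes were called. The test takes libraries, not clones, as replicates: it compares these 2 clones of each line and not the R4 deletion, and the clones of a line themselves lay 1.38 (A375) and 1.81 (WM115) apart. All 6 WM115 R4 libraries were above their WT range, against 3 of 7 in A375.

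Ordered by mean level, the A375 groups ran R4 clone 4.1, WT, R4 clone 4.2, R1 clone 1.1 and R1 clone 1.2. Libraries overlapped between clone 4.1 and WT and between clones 1.1 and 1.2, and did not overlap at the other two steps. The WM115 groups ran WT, R4 clone 4.1, R1 clone 1.1, R4 clone 4.2, clone 1.3 and R1 clone 1.2. WT and clone 4.1 did not overlap, nor did clones 1.1 and 4.2, while the remaining neighbours did. The regions therefore interleave in WM115, with 1 clone of each at a lower and 1 at a higher CLU level.

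The share of mitochondrial RNA and the CLU level both varied inside WM115 groups. In WT the library with the lowest share, 13.7%, had the highest CLU level, 5.81 TPM. The same held in clones 1.1 (4.86%, 30.3 TPM), 1.3 (8.31%, 136 TPM) and 4.2 (4.71%, 89.1 TPM). The highest share went with the lowest CLU level in clones 1.3 and 4.1 (10.8%, 12.6 TPM), but not in WT or clones 1.1 and 4.2. Clone 1.2 ran the other way. In R1 clone 1.2, library 3 had the highest share of the clone, 11.8%, and the highest CLU level, 372 TPM. In R1 clone 1.1, libraries 4 and 5 had mitochondrial shares of 13.2% and 14.4% and the lowest CLU levels, 9.07 and 15.0 TPM, while the other 3 libraries had shares of 4.86% to 6.78%. All 4 WT libraries of WM115 were in the high set, at 13.7% to 15.6%. They also had less ribosomal protein RNA, 11.1% to 12.8% of the TPM, than the clones, at 15.1% to 17.4%, except for library 3 of clone 1.3 at 10.6%. That library had CLU at 15.3 TPM and a mitochondrial share of 19.4%. The part of both shares in the CLU differences was not tested. Within WM115 libraries of high mitochondrial share, the CLU differences from WT were 1.28 in clone 1.1, 4.78 in clone 1.2, 3.05 in clone 1.3, 1.38 in clone 4.1 and 3.21 in clone 4.2. All libraries of WT and of clones 1.2 and 1.3 were in that set, so the values of these clones only repeat those over all libraries. The others used libraries 4 and 5 of clone 1.1, library 3 of clone 4.1 and libraries 2 and 3 of clone 4.2. In A375 libraries of low share the CLU differences from WT were 1.23 in clone 1.1, 1.38 in clone 1.2, -0.41 in clone 4.1 and 0.83 in clone 4.2. There each group was reduced to part of its libraries.

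SOX10 is the gene whose neighbourhood was deleted. Against WT its difference in WM115 was -2.44 in R1 clone 1.2 (SE 0.70, limma Benjamini-Hochberg adjusted p = 0.0192, called). That value leaned on library 3, since the libraries of the clone had SOX10 at 279, 272 and 9.56 TPM, against 449 to 553 TPM in WT. The difference without library 3 is not given here. In the other 4 WM115 clones the difference from WT was -0.33 to -0.23 (SE 0.61 to 0.70, limma Benjamini-Hochberg adjusted p = 0.753 to 0.932, none called). All groups of the line share 1 estimate of spread, which takes in library 3. These tests therefore cannot decide whether SOX10 was lower in those clones. In A375 it ran from -0.62 in R1 clone 1.2 (SE 0.15, limma Benjamini-Hochberg adjusted p = 0.0135, short of the size for a call) to 0.18 in R4 clone 4.1, and none was called. Group means of CLU were compared with those of SOX10 as a description. Over the 11 group means of log2(TPM + 1), each centred on its line, Pearson's r of CLU with SOX10 was -0.76, and -0.78 with library 3 of WM115 clone 1.2 left out. Within A375 r was -0.98 over 5 means and within WM115 -0.74 over 6. These values cover few points that share the WT and line means, and 4 of the 11 are the R1 clone means on which CLU was chosen. In WM115 the clones with CLU differences of 1.70 to 3.51 (4.1, 1.1, 1.3 and 4.2) had SOX10 means between 405 and 439 TPM, below the WT mean of 507 TPM.

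**Figure D3:**
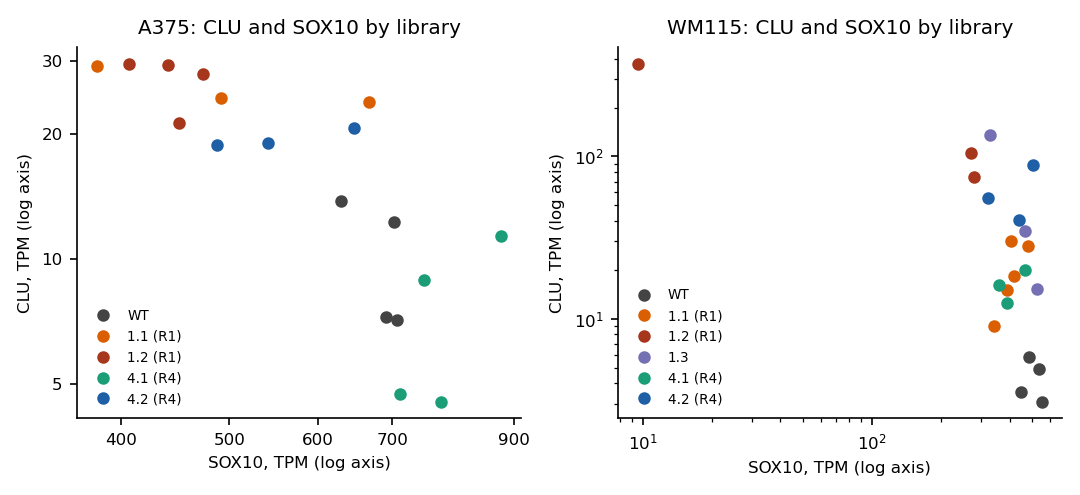
CLU against SOX10 in TPM (both log axes) in each library of A375 (left) and WM115 (right), coloured by clone. A375 groups with a lower mean of SOX10 have a higher mean of CLU, and in WM115 the library with SOX10 at 9.56 TPM has the highest CLU level, 372 TPM.

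The CLU signal was spread over several short annotated transcripts. CLU-204, a model of 3 exons and 303 spliced bases at the 5′ end of the gene (27608937 to 27614681), took on average 39.2% of the CLU TPM and led in 31 of 39 libraries. CLU-209 (4 exons, 850 bases) took 19.1%, the retained-intron model CLU-213 (594 bases) 15.0%, CLU-202 (9 exons, 2098 bases, protein coding) 14.5% and CLU-208 (520 bases) 4.5%. These 5 together took 80.4% to 100% of CLU in a library. CLU-202 was the one transcript above 0 in all 39 libraries. The other 9-exon model, CLU-201 (3080 bases), averaged 0.0673 TPM, and CLU-205 and CLU-206 were listed at 0 in all 39 libraries. Since TPM is per length, short models count for more: weighted by spliced length, CLU-202 took 37.8% and CLU-204 15.6%.

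Whether the use of CLU-204 differed from WT depended on the fit. CLU-204 took 37.5 ± 17.0% of CLU in A375 WT (SD, n = 4) and 30.5% to 48.1% on average in the A375 clones. In WM115 WT it took 30.9 ± 22.1% (SD, n = 4), where the 4 libraries had 0%, 40.6%, 31.6% and 51.2%, and clone means ran from 33.2% to 48.3%. The exact permutation tests of the CLU-204 share of each clone against WT, two-sided, gave p = 0.286 to 0.971 and, adjusted with Benjamini-Hochberg over the 9 clones, 0.823 to 0.971. For 3 against 4 libraries such an exact permutation test cannot go below 0.0571. The largest difference in share was 17.4 percentage points, in WM115 R4 clone 4.1.

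Fits over all transcripts were made as well. In limma's diffSplice, 0 of 63 tests of CLU transcripts (7 transcripts in each of 9 clones) had an adjusted p under 0.05, against 6 with an unadjusted p under 0.05. Over all transcripts the diffSplice shares that passed were 0.142%, 0.246%, 0.0884% and 0.138% in A375 clones 1.1, 1.2, 4.1 and 4.2, and 0.861%, 0.737%, 0.287%, 0.858% and 0.722% in WM115 clones 1.1, 1.2, 1.3, 4.1 and 4.2. With limma on arcsine square-root shares the count was also 0 of 63, against 9 with an unadjusted p under 0.05. Over all transcripts that fit passed 0.0154%, 0.0922%, 0.0211% and 0.0211% in the A375 clones, and 0.112%, 0.0165%, 0.00731%, 0.135% and 0.0494% in the WM115 clones, in the same order. The smallest adjusted p was 0.327 in the first fit and 0.380 in the second. Without the filter on low values, however, diffSplice passed CLU-204 in all 5 WM115 clones, with usage differences of 1.60 to 3.39 (log2) and adjusted p from 1.64e-07 in clone 1.2 to 0.0405 in clone 4.1, and in no A375 clone. That setting adds transcripts listed near 0 to the comparison. The exact permutation tests of the CLU-204 share could not give a p below 0.0571 for clones with 3 libraries, so they decide nothing there. In A375 clones 1.2 and 4.1 and WM115 clone 1.1, with 4 or 5 libraries, the exact permutation p was 0.571, 0.457 and 0.413.

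**Figure D4:**
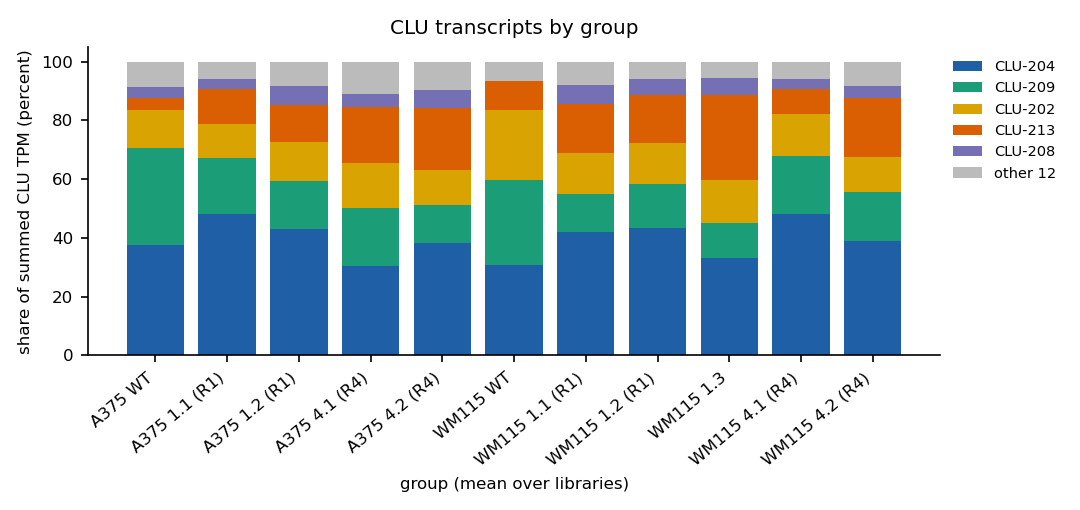
Mean share of summed CLU TPM (percent) taken by each of the 5 leading transcripts and by the other 12, in the 11 groups. CLU-204 takes between 30.5% and 48.3% in every group.

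Genes on either side of CLU were compared to see how far along the chromosome the difference reached. Of the 5 tested genes on each side, SCARA3, a scavenger receptor gene on the opposite strand 18.8 kb from CLU with no annotated gene between them, followed CLU in part. SCARA3 was called higher in A375 R1 clone 1.2, with a difference of 1.04 (SE 0.22, limma Benjamini-Hochberg adjusted p = 0.00670). In WM115 it was called in R1 clone 1.2 with 1.999 (limma Benjamini-Hochberg adjusted p = 0.000223), in clone 1.3 with 2.02 (0.000536) and in R4 clone 4.2 with 2.15 (8.45e-05), each with SE 0.28. These are the 3 WM115 clones with the highest CLU. In the other five clones SCARA3 was not called, with differences from -0.69 to 0.38. Its levels were low, with a mean of 0.56 TPM in WM115 WT and 5.88 TPM in WM115 R4 clone 4.2.

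PTK2B, a tyrosine kinase gene and the nearest tested gene on the other side, was not called in any clone, with differences between -0.54 and 0.34. Farther away, DPYSL2 was called higher in WM115 clones 1.1, 1.2, 4.1 and 4.2, BNIP3L in 1.1, 1.2 and 4.2, PBK in 1.1, and PNMA2 in clone 1.2 of both lines, while SCARA5 was called lower in A375 clone 1.2. Of the 10 neighbours, 3, 4, 1, 1 and 3 were called in WM115 clones 1.1, 1.2, 1.3, 4.1 and 4.2. Over all genes 4.88%, 7.61%, 0.618%, 7.57% and 6.6% were called there. In A375 clone 1.2, 3 were called against 4.01% of all genes, and 0 in the other A375 clones. The median difference of the 10 neighbours ran from -0.07 to 0.65, below that of CLU in each of the 8 clones in which CLU was higher than WT. Over the short arm of chromosome 8 the median was 0.39 in WM115 R1 clone 1.1 (216 genes), against -0.12 over all genes. In that clone the long arm had a median of 0.41 (362 genes). In the other WM115 clones the short arm had medians of 0.08 to 0.18 and the long arm of 0.10 to 0.20, against -0.10 to -0.02 over all genes. In A375 the short arm had medians of 0.03 to 0.06 and the long arm of -0.01 to 0.04.

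**Figure D5:**
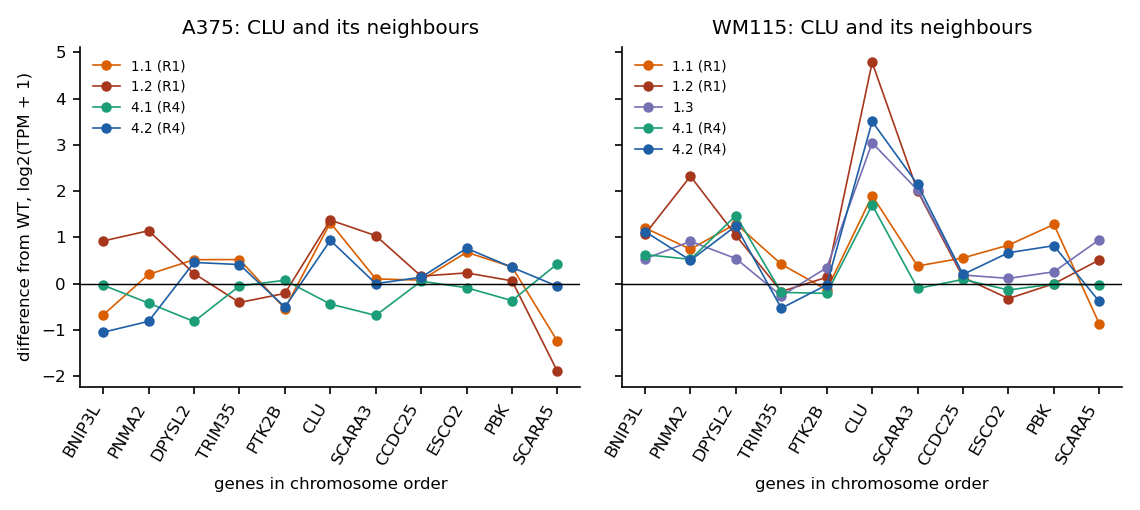
Difference from WT on the log2(TPM + 1) scale of CLU and the 5 tested genes on each side, in chromosome order, with 1 line per clone. CLU has the largest difference of the 11 genes in each WM115 clone, and SCARA3 is raised beside it in clones 1.2, 1.3 and 4.2.

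Across the 11 group means, the gene most like CLU among 1653 ranked was SPECC1, which encodes a cytospin, with a Pearson r of 0.92 (0.91 within A375 and 0.93 within WM115). SPECC1 had a mean of 11.8 TPM in A375 WT and 24.5 TPM in A375 R1 clone 1.2, and 3.66 TPM in WM115 WT and 17.9 TPM in WM115 R1 clone 1.2. In R1 clone 1.1 its mean was 16.5 TPM in A375 and 3.99 TPM in WM115. These were differences from WT of 0.46 and 0.10 on the log2(TPM + 1) scale, neither called. Next came NRP1 (r 0.88), MAGEE1 (0.85), TNNT1 (0.85) and SCARA3 (0.84). MAGEE1 is a member of the MAGE family and TNNT1 encodes a slow skeletal troponin T. The likeness of TNNT1 came from WM115, since r was 0.43 within A375. By Spearman's rho the first 5 would be CDCA7L, SPECC1, IGFBP6, MGST1 and AMIGO2. These values describe 11 points that share each line's mean, and no test was made on them.

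Genes tied to clusterin biology were called in both directions. Of 5 lists with 69 distinct genes, 54 were tested in A375 and 58 in WM115. The members called numbered 1 in A375 R1 clone 1.1, 5 in A375 R1 clone 1.2, and 0 in each A375 R4 clone, where 6 had an unadjusted limma p under 0.05. In WM115 they numbered 8 in R1 clone 1.1, 10 in R1 clone 1.2, 0 in clone 1.3 (8 by unadjusted limma p), 8 in R4 clone 4.1 and 7 in R4 clone 4.2. Over all genes the limma calls in these 9 comparisons, in the same order, were 0.731%, 4.01%, 0.653%, 0.473%, 4.88%, 7.61%, 0.618%, 7.57% and 6.6%. The median difference of the list genes ran from -0.13 to 0.16 over the 9 clones, against -0.12 to 0.07 over all genes.

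Of the 9 genes listed as clusterin receptors and uptake genes, 5 were tested in A375 and 6 in WM115. In A375 none was called in the 4 clones by limma, against 2 tests with an unadjusted p under 0.05. In WM115 LRP2, the endocytic receptor megalin, was called lower in R1 clone 1.2 (difference -3.17, SE 0.76). Its mean was 54.5 TPM in WT and 10.6 TPM in that clone. The other WM115 clones also had means below WT without a call, from 13.2 TPM in 4.2 to 28.8 TPM in 1.3. SORT1, the sorting receptor sortilin, was lower in R4 clones 4.1 (-1.72, SE 0.32) and 4.2 (-1.49, SE 0.32), and VLDLR was higher in 4.2 (1.08, SE 0.31). The median of the 6 was -0.71 in clone 1.2 and between -0.60 and -0.21 in the other four WM115 clones, against -0.12 to -0.02 over all genes. These genes, and those described next except CRYAB, FOSL2 and EGR1, are named after their values were seen.

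Among complement genes (8 of 16 tested in A375, 11 in WM115), C3, C1R, C1S and CFI were lower in WM115 R1 clone 1.1, with C3, the central complement component, at -3.73 (SE 0.59). C3 was higher in WM115 R4 clone 4.1, at 3.77 (SE 0.67), together with the membrane inhibitor CD59 at 1.11 (SE 0.20). R4 clone 4.2 had C1S and CFI lower and CFB higher, and R1 clone 1.2 had the C1 inhibitor SERPING1 higher and CD55 lower. Of the apolipoprotein and lipid transfer genes (12 of 14 tested in A375, 11 in WM115), ABCA1, the cholesterol exporter, was higher in WM115 clones 1.1, 1.2 and 4.1, and APOL1 and APOL2 were lower in 1.1 and 1.2. APOC1 was lower in WM115 clone 4.1, LPL in A375 clone 1.1 and APOD in A375 clone 1.2.

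The 14 chaperone and heat shock genes were all tested in both lines. In each of A375 R1 clone 1.2, WM115 R1 clone 1.2 and WM115 R4 clone 4.1, 1 of the 14 was called. Over all genes 4.01%, 7.61% and 7.57% were called there, so nothing is read from these counts. CRYAB, the small heat shock protein αB-crystallin, was lower in R1 clone 1.2 of both lines. Its level went from 2.46 ± 0.549 TPM in A375 WT (SD, n = 4) to 0.62 ± 0.229 TPM (SD, n = 4), and from 31.4 ± 15.4 TPM in WM115 WT (SD, n = 4) to 7.17 ± 5.95 TPM (SD, n = 3). With limma Benjamini-Hochberg adjusted p = 0.00311 and 0.00778, CRYAB differed from WT by -1.09 and -2.19. PDIA4 in WM115 clone 4.1 (1.08, SE 0.24) was the other call. List medians lay between -0.44 and 0.32.

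Of 17 genes reported as transcriptional regulators of CLU, 16 were tested in A375 and 17 in WM115. FOSL2, an AP-1 subunit, was higher in R1 clone 1.2 of both lines. Its mean level was 7.66 ± 2.41 TPM in A375 WT (SD, n = 4) and 30.4 ± 15.5 TPM in A375 clone 1.2 (SD, n = 4), a difference of 1.79 (SE 0.27, limma Benjamini-Hochberg adjusted p = 0.000460). In WM115 FOSL2 went from 7.47 ± 0.562 TPM in WT (SD, n = 4) to 50.2 ± 13.0 TPM (SD, n = 3), a difference of 2.57 (SE 0.41, limma Benjamini-Hochberg adjusted p = 0.000490). EGR1, an immediate early factor, was lower in A375 R1 clone 1.2 (-1.995, SE 0.47) and higher in WM115 R4 clone 4.2 (1.68, SE 0.57). MYCN was lower in WM115 clone 1.1 and higher in 4.1 and 4.2, and JUN (higher) and FOS (lower) were called in WM115 clone 1.2 and TGFB1 (higher) in 4.1.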

How the data were processed

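RNA-seq libraries of 39 samples (18 of A375, 21 of WM115) were used. Poly-A RNA was selected and cDNA primed with random hexamers, per the labels' protocols. The authors deposited gene and transcript tables in TPM, made with DRAGEN on GRCh38 per the submitters' processing notes. The annotation release is not given in the sources used here, and positions are from GENCODE 29 by Ensembl identifier. Gene values equalled the sum of CLU transcripts to within 0.0005 TPM. Each table holds 6 columns that match no sample and were not used. Repeated lines (200 in the gene table, 1123 in the transcript table) were used once. Depth cannot be recovered from TPM, so precision rests on the spread between libraries.

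For each line, genes reaching a TPM of 1 in 3 or more libraries (16692 in A375, 16997 in WM115) entered a limma 3.58.1 fit (R 4.3.3) of log2(TPM + 1), with 1 coefficient per group and a variance trend. Differences on this scale understate those of low genes. Tests were two-sided, with Benjamini-Hochberg adjustment over all genes tested. Contrasts of R1 clones with WT chose CLU and carry no p. Transcripts were fitted with diffSplice and shares tested by exact permutation. On simulated data with 200 transcripts changed by 2 (log2), diffSplice recovered 151 in A375 and 182 in WM115, with 142 of 338 and 166 of 417 calls in unchanged genes. A limma fit of arcsine square-root shares, added after that, recovered 87 and 119, with 12 of 142 and 13 of 229. Replicate numbers paired A375 WT with clone 4.1, because every same-numbered pair correlated at over 0.1 (0.33 to 0.78 in deviations from the group mean over genes), and with no other group compared here. Same-numbered libraries of A375 clones 1.1 and 4.2, which were not compared with each other, also correlated, at 0.43 to 0.74. With WT, those of clone 1.1 correlated at -0.36 to -0.03 and those of clone 4.2 at -0.43 to -0.0068. The part of this shared variation in the A375 CLU differences was not tested.

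CLU, the lists and the tests were chosen with earlier results of these data known. The naming rule took CLU, list members called in at least 1 clone of each line, the 5 most like CLU by Pearson r over group means (among genes whose means span at least 1 in each line), the 3 next in the rule's ranking, the 5 tested genes on each side of CLU, and SOX10. Markers come from lists; other genes were named after their values were seen. Alternatives covered the pseudocount, filters, scaling, variance trend, groups fitted, replicate block, mitochondrial set (low or high share) and single libraries. Figures were drawn with matplotlib 3.10.9. Values of some list members are not reported here.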

Additional observations from a re-analysis of the deposited data

Results flagged for a closer look

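The mean difference in CLU of the 2 R4 clones from WT was larger in WM115 than in A375 by 2.36 on the log2(TPM + 1) scale (SE 0.57, limma with Benjamini-Hochberg adjusted p = 0.00607), in a test of the difference itself over libraries. The differences from WT behind it were -0.44 and 0.94 in A375 clones 4.1 and 4.2, and 1.70 and 3.51 in WM115 clones 4.1 and 4.2. Leaving out each library in turn gave 2.20 to 2.49. The clones of a line lay 1.38 (A375) and 1.81 (WM115) apart. Libraries are not replicates of the deletion, and with only 2 clones per line, a difference between clones and a difference between lines cannot be told apart. Among the 10 sets of values examined for a library far from the others (the CLU level and the CLU-204 share in each group of 4 or 5 libraries), none was found. Groups of 3 libraries, which include WM115 clones 1.2 and 1.3, were not examined.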

How the results depend on the processing

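Values below are log2(TPM + 1) differences of CLU with limma Benjamini-Hochberg adjusted p-values, unless a share is named. CLU in A375 clone 4.2 against 4.1 lost its call with only the 2 groups fitted (1.38, adjusted p = 0.0508), with the replicate block (1.49, adjusted p = 0.0635) and with low mitochondrial share only (1.24, adjusted p = 0.257). In WM115, clone 4.1 lost its call with no filter (1.70, adjusted p = 0.0895), the mitochondrial set as a term (1.13, adjusted p = 0.228) and high share only (1.38, 1 library of the clone). Clone 1.3 lost its call with the 2 groups only (3.05, adjusted p = 0.126), the replicate block (2.98, adjusted p = 0.598) and high share only (3.05, adjusted p = 0.0775). Clone 1.2 against 1.1 lost it with the replicate block (2.47, adjusted p = 0.0616). Clone 4.2 against 4.1 was called with the mitochondrial set as a term (2.09, adjusted p = 0.0455), the 2 groups only (1.81, adjusted p = 0.00898) and the replicate block (1.81, adjusted p = 0.000998). A375 clone 1.2 minus 1.1 turned to -0.014 with median-of-ratios scaling. That scaling moved the median of all genes in WM115 clone 1.1 from -0.118 to -0.0024. The numbers do not pair these groups, so a call lost with the block is no weaker effect. The block changed no other call. Leaving out each library in turn gave 2.21 to 3.75 for WM115 clone 1.3, 1.55 to 1.86 for 4.1, 1.51 to 2.07 for 4.2 against 4.1, and -1.17 to -0.88 for WT against WT, where the call was lost without A375 WT library 1 or 4 or WM115 WT library 1 or 4.

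CLU-204 usage by diffSplice turned to -0.040 in A375 clone 4.2 with a pseudocount of 0.1. Without the filter, which adds transcripts listed near 0, it passed in WM115 clones 1.1 (1.60), 1.2 (3.39), 1.3 (1.94), 4.1 (1.70) and 4.2 (2.505). Leaving out libraries, CLU-204 share differences in percentage points ran from -1.49 to 10.3 in A375 clone 1.2, -6.10 to 5.67 in A375 clone 4.2, -7.94 to 9.14 in WM115 clone 1.3 and -2.17 to 14.9 in WM115 clone 4.2. Unknown depth and 3 to 5 libraries per group limit the precision, and the causes of these shifts were not tested.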

Other observations

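At the opposite end of the ranking of 1653 genes by likeness to CLU stood BANCR, a long noncoding RNA described in melanoma cells, with a Pearson r of -0.93 over the 11 group means (-0.93 within A375 and -0.96 within WM115). It and the next genes are named after their values were seen, and no test was made. BANCR had a mean of 3.70 TPM in A375 WT, against 0.13 TPM in R1 clone 1.1, 0.16 TPM in R1 clone 1.2, 2.88 TPM in R4 clone 4.1 and 0.25 TPM in R4 clone 4.2. In WM115 it had a mean of 24.1 TPM in WT, 14.9 TPM in R4 clone 4.1, 11.2 TPM in R1 clone 1.1, 7.35 TPM in clone 1.3, 5.40 TPM in R4 clone 4.2 and 2.44 TPM in R1 clone 1.2. The spread was wide, with 2.66 to 42.1 TPM among the 4 WM115 WT libraries. HLA-DQA1 and HLA-DQA2, class II antigen genes of similar sequence that could share reads, followed with r of -0.89 each.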
